A study of Mus musculus with 3 samples.

Results

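The cells described here are the 622 horizontal cells of the mouse retina at postnatal day 6 (P6) with the most RNA of Frem1, Scml4 and Rasgrp1 for their depth. They were chosen in the P6 library as follows. A barcode counted as a horizontal cell with at least 1000 genes, at most 10% mitochondrial UMIs, a UMI of at least 2 of the 3 lineage genes Lhx1, Onecut1 and Onecut2, and at least 5000 UMIs. A UMI is a molecular tag that marks 1 captured RNA molecule. Of 9896 barcodes at P6, 6214 met these limits. The 622 cells (the top 10%) with the most UMIs of the 3 markers per 1000000 UMIs are called rich, the 520 cells without a UMI of any of the 3 are called cells with none, and 5072 cells lay between. The rule therefore fixed that the 3 markers differ between the groups, and their levels are given as a description. The least rich of the 622 cells had 550.96 marker UMIs per 1000000, and the highest cell outside them had 550.85, so the limit cuts through a continuous range.

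The series holds 3 libraries of retinal horizontal cells sorted by fluorescence, 1 each from P6, P8 and P11, with 20048 barcodes in all. All came from Tg(Cx57icre;Ai14) mice, in which a Cre driven from the connexin 57 gene switches on the Ai14 red reporter in horizontal cells. The labels give no number of animals. With 1 library per age, no difference between ages or between groups of cells has a replicate, no test was made, and the intervals below are 95% intervals that cover counting error only.

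In the outer retina, horizontal cells serve as inhibitory interneurons that contact the terminals of rods and cones and feed back onto them. After birth their processes sort into the layer where these synapses form. Frem1 encodes a secreted protein of the Fraser complex, which links epithelia to their basement membrane. Scml4 encodes a protein related to the Polycomb group, which represses transcription through chromatin. Rasgrp1 encodes an exchange factor that activates Ras in response to diacylglycerol and calcium and is best known from lymphocytes.

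The label of horizontal cells was set against marker genes. At an equal depth of 5000 UMIs drawn at random from each cell, Lhx1 was at 704 counts per 1000000 UMIs (CPM) in rich cells and 629 CPM in cells with none, Onecut1 at 805 and 609 CPM, and Onecut2 at 1090 and 903 CPM. A UMI of 2 of these genes was a condition of the choice in both groups, so their levels do not check the label. Of 22 horizontal cell markers, 17 were measured, meaning at least 50 CPM in the higher group, and all 22 summed to 16252 CPM in rich cells and 15981 CPM in cells with none. Every one of the 13 lymphoid markers, the cells Rasgrp1 is best known from, was at 0 UMIs in both groups. The summed level of 10 rod markers was 11.3 CPM in rich cells and 14.6 CPM in cells with none. The 14 bipolar cell markers, 2 of them measured, summed to 300 CPM in rich cells and 195 CPM in cells with none, with Grik1 (142 and 76.2 CPM) among them. For 10 cone markers, 4 of them at 0 UMIs, the sum was 51.4 and 35.4 CPM, and for 13 ganglion cell markers 1858 and 2259 CPM. Most of the ganglion sum came from Nefl, also a horizontal cell marker (1088 and 1391 CPM), and Sncg (705 and 817 CPM). Rbpms was at 0 and 3.85 CPM. The part of these cell types in the results was not tested. The corresponding sums were 38.9 and 33.1 CPM for 12 microglial markers, 57.2 and 65.0 CPM for 16 cycling progenitor markers, and 194 and 216 CPM for 12 Müller glia markers. For 19 amacrine markers, 5 of them measured, the sum was 10017 CPM in rich cells and 12710 CPM in cells with none. Most of it came from Npy (5980 and 8108 CPM), C1ql1 (1809 and 2389 CPM) and Tfap2b (1683 and 1605 CPM). Tfap2b is also a horizontal cell marker. Slc6a9 was at 0.322 and 1.54 CPM and Gad1 at 29.9 and 48.8 CPM.

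The groups differed in depth and in Malat1, a long noncoding RNA that stays in the nucleus. Rich cells had a median of 13182 UMIs, between 5000 and 38814, and cells with none a median of 7822, between 5002 and 21151. Having no marker UMI is easier for a shallow cell, which is why levels are compared after the equal draw. Even so, Malat1 had a median of 21800 CPM per cell in rich cells and 13200 CPM in cells with none. Mitochondrial RNA made up a median of 3.24% and 2.75% of UMIs, and a median of 2542 and 2498 genes were seen per cell at equal depth. Xist, which marks female cells, was found in 67.2% of rich cells and 66.5% of cells with none, and Y-linked RNA in 24.8% and 22.9%. Both kinds together were found in 3.86% of rich cells, 0.769% of cells with none and 2.82% of cells between. Whether such barcodes hold more than 1 cell was not tested.

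The 3 markers were widespread at P6 and each was lower at the later ages. Over all horizontal cells the P6, P8 and P11 libraries held 44.9, 18.7 and 22.2 CPM of Frem1. Scml4 was at 85.7, 23.7 and 27.2 CPM, and Rasgrp1 at 166.6, 130.8 and 143.3 CPM. At equal depth 16.9% of P6 cells had a Frem1 UMI, 31.8% a Scml4 UMI and 54.4% a Rasgrp1 UMI. Ambient RNA can give a UMI to a cell that does not make the RNA. In the 427 P6 barcodes that passed the filters without 2 lineage genes, with a median of 2322 UMIs, Frem1 was at 44.2 CPM, Scml4 at 84.1 CPM and Rasgrp1 at 67.1 CPM, so for Frem1 and Scml4 the level there was close to that in horizontal cells. What these barcodes are was not tested.

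**Figure D1:**
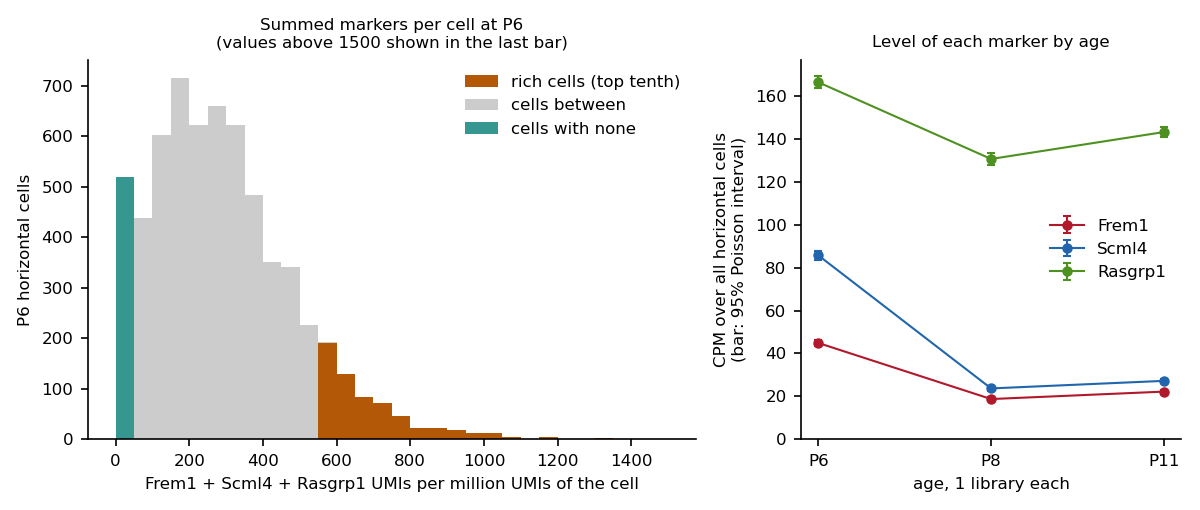
Left, number of P6 horizontal cells by summed Frem1, Scml4 and Rasgrp1 UMIs per 1000000 UMIs of the cell, with the 622 rich cells, the 5072 cells between and the 520 cells with none in different colours. Right, CPM of each marker over all horizontal cells of the P6, P8 and P11 libraries with 95% Poisson intervals. The rich cells are the upper tail of 1 broad distribution, and the 3 markers were highest at P6.

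Over the P6 horizontal cells the markers hardly went together. At equal depth 5.87% of cells had UMIs of both Frem1 and Scml4, where the product of the single shares is 5.38%. For Frem1 with Rasgrp1 the shares were 9.66% and 9.20%, and for Scml4 with Rasgrp1 17.2% and 17.3%. The correlation over 6214 cells was 0.046 for Frem1 with Scml4, 0.033 for Frem1 with Rasgrp1 and -0.003 for Scml4 with Rasgrp1, in sparse counts and with cells of 1 library. The number of marker UMIs per cell had a variance 1.20 times its mean, where random sampling of equal cells gives 1. The single genes gave 1.31 for Frem1, 1.19 for Scml4 and 1.09 for Rasgrp1. With so few marker UMIs per cell, a value near 1 does not show that the cells were equal. Of the rich cells, 357, or 57.4%, had UMIs of all 3 genes before the draw, and 26 had UMIs of 1 gene only. Rasgrp1, the most abundant of the 3, was found in 96.8% of rich cells, Scml4 in 88.1% and Frem1 in 68.3%.

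A measure outside the choice is each marker in cells chosen by the other 2. Frem1 was at 52.4 CPM in the 622 cells richest in Scml4 and Rasgrp1 and at 29.97 CPM in the 654 cells with neither, a ratio of 1.75 (1.35 to 2.27). Scml4 was at 94.9 CPM in cells rich in the other 2 and 77.0 CPM in cells with neither, a ratio of 1.23 (1.05 to 1.44). Rasgrp1 was at 178 and 153 CPM, a ratio of 1.16 (1.05 to 1.28). These groups also differed in depth before the equal draw. The median was 12884.5 and 8080 UMIs for the groups of Frem1, 13133 and 9073 for Scml4, and 12762 and 11048 for Rasgrp1. The part of depth and of Malat1 in these ratios was not tested. The ratio of Frem1 was 1.27 when all other horizontal cells took the place of cells with neither, and 2.32 in cells of at least 10000 UMIs. At P8 the same ratios were 1.52 for Frem1, 1.56 for Scml4 and 1.34 for Rasgrp1, and at P11 1.44, 1.27 and 1.15. At these ages the intervals of Frem1 and Scml4 reached below 1.

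In the 4492 P6 cells with at least 10000 UMIs, 5000 UMIs were drawn for measurement and the rest used for the choice, so that no molecule did both. In the drawn UMIs the 3 markers summed to 388 CPM in 450 rich cells and 220 CPM in 532 cells with none, a ratio of 1.77 (1.59 to 1.96). Frem1 was at 71.6 and 24.4 CPM (ratio 2.93, 2.18 to 3.97), Scml4 at 133 and 60.9 CPM (2.18, 1.80 to 2.66) and Rasgrp1 at 183 and 134 CPM (1.36, 1.18 to 1.58). With the same molecules choosing and measuring, cells with none are at 0 by the rule. The difference in marker level between cells was thus seen again in other molecules of the same cells, and it was smallest for Rasgrp1.

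Across all other genes, 175 of the 4127 measured were at least 1.5-fold higher in rich cells than in cells with none (4.24% of genes), and 38 were at least 1.5-fold lower (0.921%). The median gene was at a log2 ratio of -0.03. The higher genes reached a ratio of 2.13, with a median of 1.59, and the lower genes went down to 0.583. These counts changed with the groups compared. Against all other horizontal cells in place of the 520, 2 genes were higher and none lower. With a wider rich group of 1243 cells against the same 520, 91 were higher and 16 lower. With cells chosen on the 5000 drawn UMIs, 1 was higher and 1 lower. That choice gave other and larger groups, of 1177 rich cells and 1632 cells with none. Why the counts differ was not tested.

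The 15 genes named as highest were those whose interval lay furthest above 1 among measured genes, leaving out mitochondrial, ribosomal, hemoglobin, sex-linked and provisional genes, so that intervals above 1 were fixed by the choice. Alk, a receptor tyrosine kinase of developing neurons, was at 362 CPM in rich cells and 188 CPM in cells with none, a ratio of 1.92 (1.72 to 2.14), and 67.4% and 47.3% of cells had a UMI of it. Gpr158, an orphan receptor, was at 95.2 and 44.6 CPM, a ratio of 2.13. Egfem1, which encodes a protein with EGF-like domains, was at 963 and 550 CPM (ratio 1.75, 1.65 to 1.87). Pde7b, a phosphodiesterase that degrades cAMP, was at 69.1 and 32.7 CPM (2.11), and the adaptor gene Gab3 at 60.8 and 28.8 CPM (2.11). Gpr158, Pde7b and Gab3 were under 50 CPM in cells with none and were measured through their level in rich cells. The same held for Lyn, given next.

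The kainate receptor gene Grik1, which is on the bipolar marker list, was at 142 CPM in rich cells and 76.2 CPM in cells with none (ratio 1.87), and Lyn, a Src-family kinase, at 70.7 and 35.0 CPM (2.02). Of the adhesion genes, the receptor phosphatase gene Ptprt was at 1089 and 635 CPM (1.71), Lingo2 at 553 and 325 CPM (1.70), and Lsamp, which encodes a surface protein of neurons, at 10497 and 6758 CPM (1.55). Dcc, the netrin receptor gene of axon guidance, was at 468 and 280 CPM (1.68). The others were Malat1 at 22559 and 14329 CPM (1.57), Ndst3 of heparan sulfate synthesis (1.81), the deacetylase gene Hdac8 (1.94) and Rora, a nuclear receptor (1.63). When the cells between were split at their median marker level, Lsamp was at 8221 CPM in the 2536 lower cells and at 9295 CPM in the 2536 upper cells. Alk was at 209 and 253 CPM in those lower and upper cells. All of the 15 followed the order of the marker level except Gab3, at 52.0 CPM in the lower and 47.2 CPM in the upper cells.

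The 15 lowest genes, named by the same rule in the other direction, differed by less than the 15 highest. Ckb, the brain creatine kinase, was at 2668 CPM in rich cells and 3997 CPM in cells with none, a ratio of 0.668 (0.648 to 0.687). Actb was at 2267 and 3316 CPM (ratio 0.684), the tubulin genes Tubb2a at 1293 and 1824 CPM (0.709) and Tubb3 at 529 and 760 CPM (0.696), and the neuropeptide gene Npy at 5980 and 8108 CPM (0.738). Of genes of energy metabolism, Ldha was at 206 and 316 CPM (0.651), Pfkl at 95.2 and 149 CPM (0.639), Gapdh at 1614 and 2225 CPM (0.726) and Mdh1 at 632 and 912 CPM (0.693). Atpif1 (0.688), Atp5o (0.697), Mif (0.687), Naxd (0.586), Ift27 (0.600) and Sept4 (0.713) complete them. Only Ldha, Pfkl, Naxd and Ift27 were past 1.5-fold.

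Of the gene lists, those of neuronal surface and signalling proteins lay above the median gene. Over all measured genes 4.24% were past 1.5-fold higher and the median log2 ratio was -0.03. In the class of genes with the longest span, described below, 17.0% were past 1.5-fold higher and the median was 0.39. The medians of the lists here were close to that of these long genes, and the part of span in them was not tested. All 14 measured genes of guidance and mosaic spacing were above 1, with a median log2 ratio of 0.39, and 2 were past 1.5-fold, Dcc and the semaphorin receptor gene Plxna4 (1.55). Of 19 glutamate receptor and postsynaptic genes 18 were above 1 (median 0.40) and 4 past 1.5-fold, among them Grik1. Of 22 potassium, sodium and calcium channel genes 19 were above 1 (median 0.45) and 5 past 1.5-fold, among them Kcnd2 (1.62) and Dpp10 (1.60). All 20 measured neuronal transcription factor genes were above 1 (median 0.39), with Rora, Esrrb (1.52) and Esrrg past 1.5-fold. For 20 synaptic adhesion genes the median was 0.38 and 2 were past 1.5-fold, Ntng1 (1.56) and Lrrc4c (1.53). Genes of these lists given without levels may have been measured through their level in rich cells alone.

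In lists from the markers' own pathways between 2 and 3 genes each were past 1.5-fold, where 4.24% of all measured genes were. Of 24 measured genes of Ras, diacylglycerol and ERK signalling, the pathway of Rasgrp1, 19 were above 1 (median log2 ratio 0.28) and 3 past 1.5-fold: the phospholipase gene Plcb1 (1.63), Dgkb (1.52), a kinase that consumes diacylglycerol, and Sos2. Of 11 Polycomb group genes 6 were above 1 (median 0.21), with Asxl2 (1.60) and Asxl3 (1.55) past 1.5-fold. The levels of Asxl2 and Asxl3 are not given here, and a gene can be measured through its level in rich cells alone. Of 33 genes of the Fraser complex and basement membrane only 4 were measured, all above 1, and Lama3, a laminin chain at 164 CPM in rich cells and 101 CPM in cells with none (1.62), and the integrin gene Itgb1 at 58.8 and 37.7 CPM (1.56) were past 1.5-fold. Itgb1 was measured through its level in rich cells. Its ratio was 0.981 when 3000 UMIs were drawn and 0.907 in cells of at least 10000 UMIs.

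The ankyrins, which anchor membrane proteins to the spectrin skeleton and are the subject of the series, were moderately higher in rich cells. Ank2 was at 2135 CPM in rich cells and 1567 CPM in cells with none (ratio 1.36, 1.31 to 1.42), and Ank3 at 635 and 483 CPM (1.31, 1.22 to 1.41). Ank1 was barely seen, at 4.18 and 1.92 CPM. None of the 10 measured genes of ankyrins and the spectrin skeleton was past 1.5-fold higher, where 4.24% of all measured genes were (median log2 ratio 0.35). Of 15 membrane partners of ankyrins 3 were, the sodium channel genes Scn2a (1.64) and Scn3a (1.63) and the adhesion gene Nrcam.

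Glycolysis was the list furthest below the median gene. Of 14 measured genes 1 was above 1 and 3 were at least 1.5-fold lower in rich cells, Aldoc at 31.2 and 53.5 CPM (0.583), Pfkl and Ldha, with a median log2 ratio of -0.41. Over all measured genes 0.921% were at least 1.5-fold lower. Aldoc was measured through its level in cells with none. For 23 genes of immature neurons and neurite growth the median was -0.25, with none past 1.5-fold. The calcium-binding protein gene Calb1, whose level over all horizontal cells was 709 CPM in the P6, 1719 CPM in the P8 and 2959 CPM in the P11 library, was at 587 CPM in rich cells and 725 CPM in cells with none (0.810, 0.759 to 0.865) and Mgarp, which encodes a mitochondrial protein, at 129 and 182 CPM (0.709). Vax2, a transcription factor gene of ventral retina, was at 55.0 and 31.2 CPM (1.76, 1.35 to 2.33) and Rassf8 at 23.8 and 34.6 CPM (0.687, 0.498 to 0.945). Vax2 was measured through its level in rich cells, and Rassf8 was under 50 CPM in both groups. Pyy, a peptide hormone gene, was at 269 and 225 CPM (1.19).

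These differences moved with the span of the gene, the distance between its ends on the mm10 genome, introns included. The measured genes were put in 5 classes of nearly equal size by span. In the shortest class, median 4.27 kb, the median log2 ratio was -0.28. In the following classes it was -0.20, -0.04 and 0.18, and in the longest class, median 214 kb, 0.39. Of the 175 genes at least 1.5-fold higher, 140 were in the longest class, and of the 38 lower, 33 were in the 2 shortest. The correlation between log10 span and log2 ratio was 0.70 over 4127 genes, which are not independent replicates. Measured from the median of their own class, 38 genes were at least 1.5-fold higher and 30 lower. The markers span 154 kb (Frem1, chr4:82897920-83052339, minus strand), 100 kb (Scml4, chr10:42860370-42960780, plus strand) and 63.0 kb (Rasgrp1, chr2:117279993-117343001, minus strand). Malat1 itself spans 6.98 kb. Whether unspliced RNA gave the counts of long genes was not tested, as the files hold 1 count per gene.

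**Figure D2:**
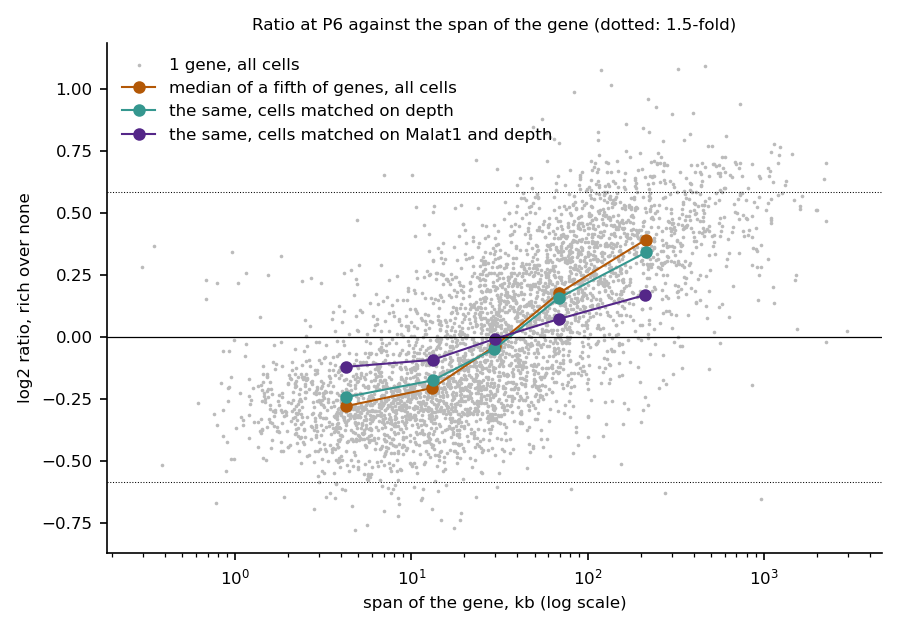
Each grey point is 1 of the genes measured at P6, with its span in kb on a log axis and its log2 ratio of rich cells over cells with none. Coloured points are medians of the 5 classes of genes for all cells, cells matched on depth and cells matched on Malat1 and depth. Ratios were higher for longer genes, and the median of the longest class was 0.39 in all cells, 0.34 after matching on depth and 0.17 after matching on Malat1 and depth.

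Fewer genes were past 1.5-fold in cells matched on Malat1 than in cells matched on depth. Matching drew equal numbers of both groups within narrow classes and was added after these differences had been seen. With 349 cells each matched on depth, 156 genes were higher (3.78%) and 53 lower (1.28%). With 353 cells each matched on Malat1, 40 were higher (0.981%) and 18 lower (0.442%). With 289 cells each matched on both, 50 were higher (1.22%) and 30 lower (0.733%). In the cells matched on both, Malat1 had a median of 18000 CPM in rich cells and 18200 CPM in cells with none, and depth a median of 9960 and 9882 UMIs. The median of the class of longest genes was then at 0.17 and that of the shortest at -0.12. Matching also left fewer cells in each group.

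Of the 15 highest genes, 6 stayed past 1.5-fold in cells matched on both. These were Gab3 (1.95), Grik1 (1.77), Lyn (1.64), Ndst3 (1.53), Gpr158 (1.52) and Pde7b (1.52). Gab3, Lyn, Gpr158 and Pde7b were among the genes measured at P6 through their level in rich cells. Alk was at 1.48 and Egfem1 at 1.41, and Lsamp was at 1.22. Malat1 was at 1.02, which the matching fixes. Of the 15 lowest, Ldha (0.649), Pfkl (0.633) and Naxd (0.626) were past 1.5-fold. The list of glutamate receptors had a median log2 ratio of 0.21 in these cells, that of channels 0.28, that of guidance 0.14 and that of glycolysis -0.30, where the median of all genes was 0.00. Ank2 was at 1.14 and Ank3 at 1.13. Vax2, also measured through its level in rich cells, was at 1.62.

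**Figure D3:**
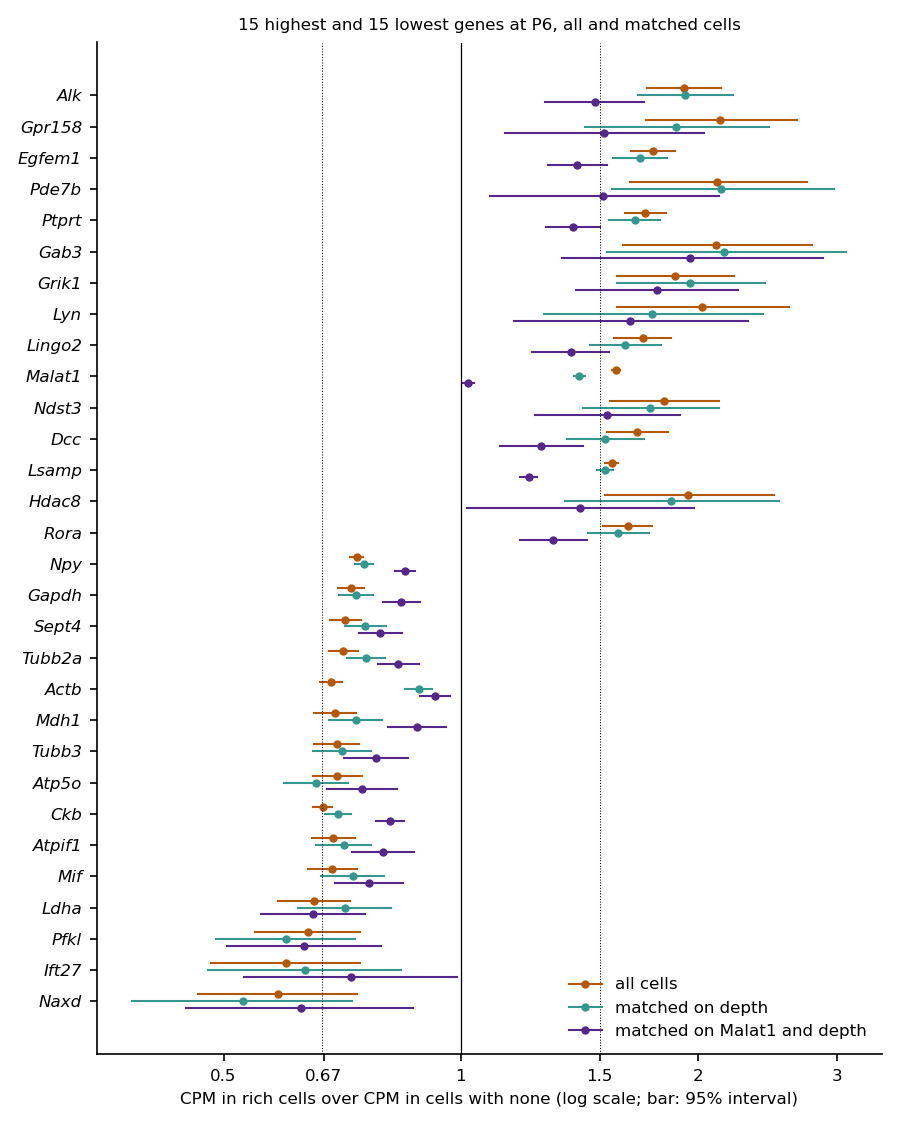
Ratio of CPM in rich cells over cells with none at P6 for the 15 highest and 15 lowest genes, on a log axis with 95% intervals, in all cells, cells matched on depth and cells matched on Malat1 and depth. Alk, Egfem1, Ptprt, Lsamp and Rora lay closer to 1 in cells matched on Malat1 and depth, and Gab3, Grik1 and Pfkl were beyond the dotted lines at 1.5-fold in all 3 sets of cells.

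The genes whose level per cell was most like the summed markers included 4 of the 15 highest, Lsamp, Malat1, Egfem1 and Ptprt. The largest correlations over the 6214 cells were 0.129 for Lsamp, 0.125 for Fgf12, 0.110 for Malat1 and 0.108 for Nrxn3. Egfem1, Ank2 (0.099), Ptprt, Auts2, Hs6st3 and Pcdh9 followed. At the other end Ckb had -0.125. All are weak, in sparse counts, and the cells share 1 library.

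With each marker by itself few genes were past 1.5-fold, in groups set by the drawn UMIs. With cells that had a UMI of 1 marker among their 5000 drawn UMIs set against cells without one, both groups had nearly the same depth, at a median of 13483 and 12829 UMIs for Frem1. A cell without a drawn UMI could still hold the marker. Before the draw 32.5% of P6 cells had a Frem1 UMI, 56.3% a Scml4 UMI and 80.7% a Rasgrp1 UMI. After it the shares were 16.9%, 31.8% and 54.4%. The part of this mixing in the counts below was not tested. For Frem1, 1 of 3951 genes was at least 1.5-fold higher (0.0253%) and none lower (0%). That gene was Pyy, at 318 CPM in 1051 cells with Frem1 and 202 CPM in 5163 cells without (ratio 1.57, 1.48 to 1.66). Close to it were Pde7b at 69.7 and 46.9 CPM (1.49) and Alk at 328 and 223 CPM (1.47, 1.40 to 1.56), then the vesicular glutamate transporter gene Slc17a6 (1.39), itself a ganglion cell marker. For Scml4 and for Rasgrp1 no gene passed (0% each way). The leading genes were Cdkal1 (1.35) and Maml3 (1.26) for Scml4, and Ice1 (1.20) for Rasgrp1. At P8, 27 genes were higher (0.721%) and 7 lower (0.187%) with Frem1, 9 (0.244%) and 1 (0.0271%) with Scml4, and none either way with Rasgrp1. At P11 Frem1 gave 1 each way (0.0261% each) and the other markers none. No p-value can stand beside these counts of 0, as 1 library allows no test.

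Turned round, the markers were compared between cells grouped by genes outside the choice. Frem1 was at 52.8 CPM in 3324 P6 cells with an Alk UMI and 30.4 CPM in 2890 cells without (ratio 1.74, 1.55 to 1.95). In the same cells Scml4 had a ratio of 1.16 (1.07 to 1.25) and Rasgrp1 1.06 (0.998 to 1.12). Frem1 was also higher in cells with Alk at P8 (2.01, 1.52 to 2.62) and at P11 (1.62, 1.13 to 2.25), where Alk was at 36.8 and 13.6 CPM over all horizontal cells, after 251 CPM at P6. In cells with a Pyy UMI at P6 Frem1 had a ratio of 1.41 (1.26 to 1.57), Scml4 0.995 (0.917 to 1.08) and Rasgrp1 1.07 (1.01 to 1.13). At P6 the values by Alk and Pyy restate the contrast of Frem1 above, in which these genes led, on the same cells and UMIs. The difference between the markers was not tested.

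Grouped by Malat1, the ratios of Scml4 and Frem1 were above that of Rasgrp1 at P6, a difference that was not tested. In the 1557 P6 cells with the most Malat1 (the top 25%) Scml4 was at 107 CPM and in the 1590 with the least at 58.6 CPM (ratio 1.82, 1.62 to 2.04), where Frem1 had 1.65 (1.40 to 1.93) and Rasgrp1 1.17 (1.08 to 1.27). At P8 the same ratios were 2.32 for Scml4, 3.45 for Frem1 and 1.25 for Rasgrp1. Scml4 was lower in cells with a Rassf8 UMI, at 64.8 CPM against 86.9 CPM in cells without (0.746, 0.657 to 0.844), with Frem1 at 0.883 and Rasgrp1 at 1.01. By Vax2, the ventral gene, Frem1 had 1.08 (0.938 to 1.25), Scml4 1.13 (1.02 to 1.25) and Rasgrp1 1.04 (0.968 to 1.12).

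**Figure D4:**
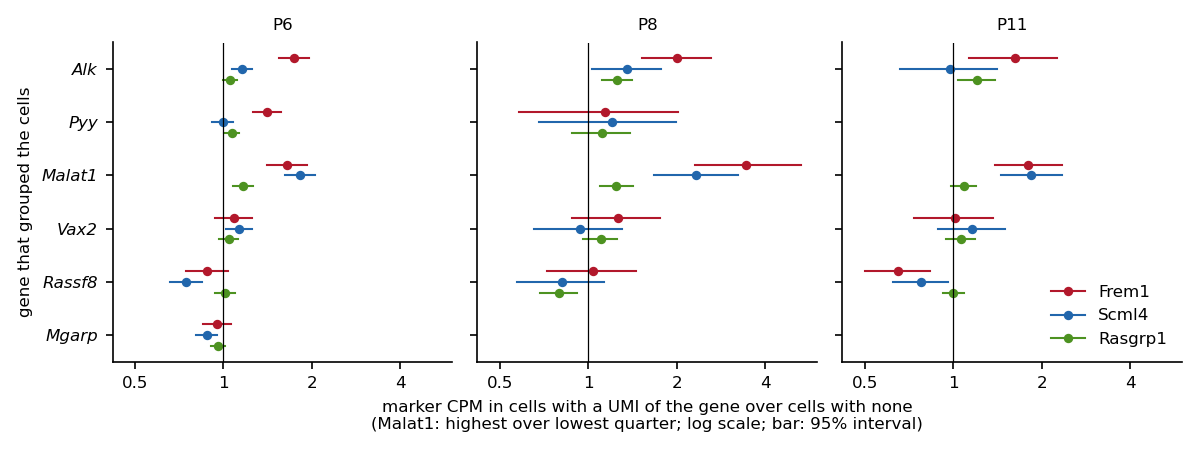
Ratio of the CPM of Frem1, Scml4 and Rasgrp1 in cells with a UMI of the gene on the left axis over cells without one (for Malat1, the top 25% over the bottom 25% of cells), at equal depth, on a log axis with 95% intervals, in the P6, P8 and P11 libraries. Groups of under 100 cells are not drawn. Frem1 was higher in cells with Alk at each age, and Rasgrp1 lay near 1 for most genes at P6. At P8 Rasgrp1 was at 1.26 by Alk, 1.25 by Malat1 and 0.794 by Rassf8, and at P11 it was at 1.20 by Alk.

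Rich cells were spread over the P6 cells with some concentration. On principal components computed without the 3 markers, a mean of 15.7% of the 15 nearest neighbours of a rich cell were rich, against 6.65% for a cell with none and 10.7% over all cells. Among 9 clusters of these components the share of rich cells ran between 2.82% and 22.1%. The largest share, 34 of 154 cells (15.8 to 29.5%), was in a cluster with a median of 7337 UMIs led by Pcp4 among others, in which 11.0% of cells were cells with none. Pcp4 was at 5.14 CPM in rich cells and 21.2 CPM in cells with none, and Calb2, an amacrine marker, at 0.643 and 12.3 CPM. Few cells gave these levels. Of the 55 Pcp4 UMIs in cells with none 50 came from 4 cells, and of the 32 Calb2 UMIs 27 came from 3 cells. An alternative left out clusters whose 10 leading genes held 1 marker of another class and no horizontal cell marker. These were that of 154 cells, with Calb2, and one of 417 cells, with Slc17a6 after Anxa2 and Pyy. Without them 173 genes were higher and 40 lower. The most rich cells, 201 of the 622, were in a cluster of 1107 cells with the highest median depth of the 9, 15940 UMIs, of which 18.2% were rich and 1.90% were cells with none. No cluster was made up mainly of rich cells.

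The same rule was applied to the P8 and P11 libraries, each with its own limit, of 332 and 343 marker UMIs per 1000000. At P8, 301 rich cells were set against 221 cells with none, and 414 of 3836 genes were at least 1.5-fold higher (10.8%) and 119 lower (3.10%). At P11, with 459 and 188 cells, 99 of 4005 genes were higher (2.47%) and 42 lower (1.05%). The median depth was 20330 and 18814 UMIs at P8 and 22167 and 19472 UMIs at P11, and Malat1 had a median of 18600 and 5800 CPM at P8 and 23400 and 13100 CPM at P11. Malat1 was thus higher in the rich cells of each library. Its part in the counts of genes was not tested. Matched on Malat1, 201 genes were higher (5.16%) and 99 lower (2.54%) at P8, and 94 (2.36%) and 62 (1.55%) at P11. Matched on depth, 401 (10.3%) and 143 (3.69%) passed at P8, and 174 (4.24%) and 79 (1.93%) at P11. Matched on both, 225 (5.68%) and 131 (3.31%) passed at P8, and 115 (2.83%) and 75 (1.85%) at P11. The horizontal cells compared at P8 had no Xist UMI, so that library differs from the other 2 in sex, so age, sex and library cannot be told apart.

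Most of the highest P6 genes that could be measured were also higher in the rich cells of the other libraries. At P8 all 11 of the 15 that were measured were past 1.5-fold, with ratios between 1.66 and 2.96. Grik1 (2.96), Lingo2 (2.60), Egfem1 (2.32) and Alk (2.25) led them. At P11 all 12 measured were above 1 and 6 past 1.5-fold, Pde7b (1.95), Dcc (1.82), Grik1 (1.76), Lyn (1.64), Ndst3 (1.57) and Egfem1 (1.54). Of the genes at least 1.5-fold higher at P6 and measured in both libraries, 72 were also higher at P8, 67.9% of the 106 at P6 and 18.6% of the 388 at P8, where 10.9% of all genes measured in both were higher at P8. With P11, 22 were shared, 17.2% of 128 and 26.2% of 84, where 2.30% of all were higher at P11. The class of longest span held 140 of the 175 genes higher at P6. In the longest class of each library 35.9% of genes were higher at P8 and 6.74% at P11. The part of span in the shared genes was not tested. Malat1 and depth were not equal between the groups in any of the libraries.

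Of the 15 lowest genes, 4 of which were past 1.5-fold at P6, few were past it in the other libraries. At P8 all 15 were below 1 and 2 past 1.5-fold, Ckb (0.644) and Ldha (0.663). At P11 12 of 14 measured were below 1 and Ldha alone (0.553) past 1.5-fold. Of the genes at least 1.5-fold lower at P6, 5 of 30 (16.7%) were also lower at P8, against 2.38% of all genes measured in both, and 3 of 26 (11.5%) at P11, against 0.684% of all. These are 5.88% of the 85 lower genes at P8 and 12% of the 25 at P11. Glycolysis had a median log2 ratio of -0.37 at P8 and -0.30 at P11, with 2 of 13 and 1 of 14 genes at least 1.5-fold lower, where 3.10% and 1.05% of all measured genes were. Ank2 was at 1.42 and 1.27 and Ank3 at 1.43 and 1.26 at P8 and P11.

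**Figure D5:**
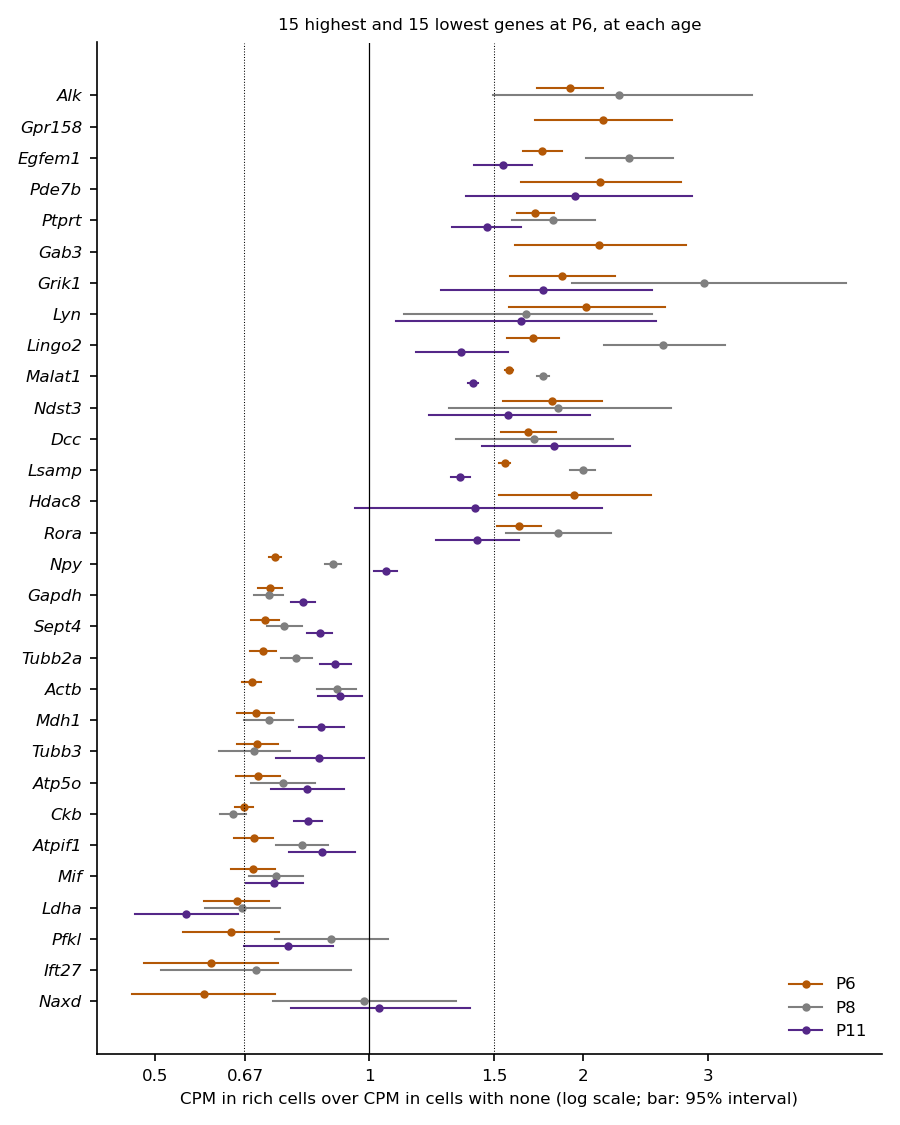
Ratio of CPM in rich cells over cells with none for the 15 highest and 15 lowest genes at P6, on a log axis with 95% intervals, in the P6, P8 and P11 libraries. Genes under 50 CPM in both groups of a library are not drawn there. The highest genes stayed above 1 wherever measured, and Npy and Naxd crossed 1 at P11.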

How the data were processed

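UMI counts per gene and cell were used as deposited by the authors, 1 matrix per library. The submitters' processing notes name Cell Ranger 7.1.0 and the build mm10. The rest was computed here with Python 3.11.15, numpy 2.4.6, scipy 1.17.1 and scanpy 1.11.5. Cells were thinned to 5000 UMIs without replacement and summed per group as counts per 1000000 UMIs (CPM). Intervals are exact, Poisson for levels, conditional binomial for ratios and Clopper-Pearson for shares, at 95%. They treat UMIs as independent and cover counting error only. A gene was measured with at least 50 CPM in the higher group and called at 1.5-fold. No test was made. A count of 0 entered a ratio as 3. The comparison was checked on simulated cells. Gene spans are from GENCODE vM21 (mm10), matched by gene ID. Barcodes shared between libraries numbered 13, 15 and 8. Doublet scores from Scrublet marked 0% of P6 cells, so no cell was removed as a doublet, and cells with high scores, 6.43% of rich cells and 4.23% of cells with none, were left out in an alternative. Genes named were the 15 highest and 15 lowest by the interval bound nearest 1, at most 2 each way per list, the 10 most correlated with the markers, and a fixed set including the ankyrins, leaving out mitochondrial, ribosomal, sex-linked and provisional genes. The other genes named in a list's count, and those leading the contrasts of single markers, were named after their values were seen. The markers, lists and tests were chosen with earlier results of these data known.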

Additional observations from a re-analysis of the deposited data

Results flagged for a closer look

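Lrrc4c, which encodes a synaptic adhesion protein, went opposite ways in rich cells of different ages. Its ratio of rich cells over cells with none was 1.53 at P6 and 0.614 at P11, and both intervals left out 1. Npy was at 0.738 at P6 and 1.05 at P11. With 1 library per age these differences were not tested.

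Barcodes that the comparison did not use also held the markers. In the 427 P6 barcodes with under 2 of the lineage genes Frem1 was at 44.2 CPM, Scml4 at 84.1 CPM and Rasgrp1 at 67.1 CPM, more than the limit that a count of 0 allows. The 931 P6 horizontal cells under the UMI minimum, with a median of 3425 UMIs, were also left out. There Frem1 was at 70.7 CPM, Scml4 at 137 CPM and Rasgrp1 at 150 CPM. The horizontal cells used held 44.9, 85.7 and 166.6 CPM. Why these levels differ was not tested.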

How the results depend on the processing

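No paired analysis was possible because each age has 1 library. At P6 the counts of genes at least 1.5-fold higher and lower in rich cells were 175 and 38. They were 113 and 12 with cells not thinned, 91 and 16 with the top 20% of cells as rich, 1 and 1 with cells chosen on the thinned UMIs, and 2 and 0 against all other horizontal cells. Choosing cells without Frem1 gave 56 and 11, without Scml4 19 and 2, and without Rasgrp1 50 and 8. A minimum of 20 CPM gave 387 and 137 and one of 100 CPM 82 and 9. Matching on Malat1 gave 40 and 18. The higher count was 50 with matching on Malat1 and depth. The lower count was 78 with 3000 UMIs, 80 in cells of at least 10000 UMIs, and 9 as a mean over cells.

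At P8, where the counts were 414 and 119, they were 13 and 0 with cells chosen on the thinned UMIs, 258 and 69 with the top 20%, 149 and 13 against all others, 263 and 60 without Scml4, 237 and 19 without Rasgrp1, 960 and 281 at 20 CPM, and 189 and 52 at 100 CPM. The higher count was 201 with matching on Malat1 and 225 on both. The lower count was 38 not thinned, 68 without Frem1, 194 with TMM scaling, 225 with median-of-ratios scaling and 38 as a mean over cells.

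At P11, where they were 99 and 42, they were 211 and 81 with 3000 UMIs, 51 and 24 not thinned, 0 and 0 with cells chosen on the thinned UMIs, 4 and 0 against all others, 52 and 26 without Frem1, 35 and 23 without Scml4, 18 and 4 without Rasgrp1, 276 and 153 at no more than 5% mitochondrial UMIs, 156 and 72 in cells of at least 10000 UMIs, 405 and 198 at 20 CPM, 28 and 7 at 100 CPM, 36 and 9 as a mean over cells, and 174 and 79 matched on depth. The higher count was 43 with the top 20%, and the lower count 75 matched on both.

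At P6 the ratio of each marker in cells chosen by the other 2 was 1.27 for Frem1 against all others, 1.48 for Scml4 without high doublet scores, 1.29 for Rasgrp1 at no more than 5% mitochondrial UMIs, and 2.32 for Frem1 and 1.54 for Scml4 in cells of at least 10000 UMIs. Itgb1 changed direction, at 0.981 with 3000 UMIs and 0.907 in cells of at least 10000 UMIs. The cause was not tested. Matching, and leaving out cells with Pcp4 and Calb2 (178 and 38), were chosen after seeing the data. Depth limits the lists, since genes under 50 CPM in both groups were not compared.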
